A study of Mus musculus with 7 samples.

Results

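The genes described here are 10 genes of the small RNA pathways, taken by name from a table of 37620 mouse genes: Drosha, Dgcr8, Dicer1, Tarbp2, Ago1, Ago2, Ago3, Piwil2, Mael and Tdrkh. All 10 were found in the table by their Ensembl identifiers. Each of the 7 libraries holds the RNA of a single MII oocyte, the mature egg held at metaphase of its second division. The 4 KO oocytes (KO1 to KO4) were Hiraf/f, Zp3-Cre, and the 3 WT oocytes (WT1, WT2 and WT4) were Hiraf/f without Cre, so that both genotypes carried the floxed Hira alleles. The Zp3 promoter drives Cre in growing oocytes, and Hira encodes a chaperone of the histone variant H3.3. A further WT oocyte that the design names was not analysed here. No label names the animal, strain or age behind an oocyte. Each genotype therefore counts as 1 sample, no test of the genotype is given, and "higher" and "lower" refer to these 7 libraries alone.

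Small RNAs guide Argonaute proteins to matching RNA. The microprocessor, made of DROSHA and DGCR8, cuts primary microRNAs in the nucleus, and DICER, helped by TARBP2, cuts the resulting hairpins and also long double-stranded RNA. In mouse oocytes the best known products of DICER are endogenous siRNAs, which silence transposons and some mRNAs through cleavage by AGO2, whereas microRNAs have little activity there. A shorter oocyte form of DICER starts within a retrotransposon in an intron, and values per gene do not separate it from the long form. The piRNA pathway, with PIWI proteins such as PIWIL2, is needed in the male germ line of the mouse and is dispensable for fertility in the female.

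The Dgcr8 mRNA is itself cut by the microprocessor, at hairpins that it shares with annotated microRNAs. The hairpin of Mir1306 lies inside a coding exon of Dgcr8, at chr16:18284239-18284317 on the minus strand (GRCm38.p6, sequence from RefSeq). It is shown because it ties Drosha to Dgcr8, whose levels are each given below. Any relation between their levels was not tested. Capitals mark its mature arms, miR-1306-5p and then miR-1306-3p.
Mir1306 hairpin: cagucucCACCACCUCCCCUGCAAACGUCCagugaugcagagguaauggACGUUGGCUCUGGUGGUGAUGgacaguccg
The Mir1306 row of the table was at 0 in all 7 libraries. As the hairpin lies inside a Dgcr8 exon on the same strand, reads from it cannot be assigned with certainty, and this 0 does not show absence.

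Levels are in FPKM as the authors deposited them (fragments per kilobase of gene, scaled to the reads of the library), and reads were worked out from the steps between these values. Reads in genes ranged from 15887904 to 25940519 in KO and from 15340782 to 20077129 in WT libraries. Hira was at 0.094, 0.095, 0.024 and 0.10 FPKM in KO1 to KO4, against 0.312, 0.347 and 0.291 FPKM in WT1, WT2 and WT4, with no overlap. In the reference annotation 44.7% of the exon length of Hira is shared with the gene Gm28539. All 10 oocyte markers, Gdf9 and Zp3 among them, were above the expression filter. Their summed level was 4187 to 4331 FPKM in KO oocytes and 6035 to 6811 FPKM in WT oocytes. The 3 most abundant, Oosp1 (means of 1592 in KO and 2496 in WT), Gdf9 (1165 and 1856) and Bmp15 (656 and 1022), were lower in KO with ranges apart. Among all genes above the filter, 8.94% were lower with ranges apart. Of the 362 genes with a mean of at least 100 FPKM, 17.1% were over 1.5-fold lower in KO and 4.97% higher. The other markers overlapped between genotypes. Of these, Mos (229 and 208) and Figla (5.13 and 4.19) had the higher mean in KO and Nlrp5 (323 and 323) was level. Zp1, Zp2, Zp3 and Zar1 had the lower mean in KO. Of 12 cumulus and granulosa cell markers, 11 were under 1 FPKM in every oocyte, and Amh, Foxl2, Nr5a1 and Tnfaip6 were at 0 in all of them. Their sum was 0.785 to 5.59 FPKM in KO and 0.0449 to 0.693 FPKM in WT oocytes, and the marker above 1 was Fshr, at 0, 2.99, 4.34 and 4.51 FPKM in KO1 to KO4 and 0 in WT. The part of these markers in the differences below was not tested.

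Dicer1 stood far above the other 9 genes in every oocyte. Averaged over the 7 oocytes it was at 45.1 FPKM, followed by Ago3 at 7.51, Tdrkh at 5.40, Mael at 4.29, Drosha at 4.09 and Ago2 at 2.17 FPKM. Dgcr8 (0.408), Tarbp2 (0.289), Piwil2 (0.185) and Ago1 (0.003) were all under 1 FPKM. Only the steps from Dicer1 to Ago3 and from Ago2 to Dgcr8 separated neighbours without any overlap of their ranges. Ago3 was above Tdrkh in 6 of 7 oocytes, Tdrkh above Mael in 5, Mael above Drosha in 4 and Drosha above Ago2 in 5, so the order within this middle group is not fixed. Dicer1 made up 64.7% ± 2.32 of the summed FPKM of the 10 genes in KO and 65.5% ± 3.41 in WT oocytes (SD over oocytes, n = 4 KO and n = 3 WT, as in all values below). The order also depends on gene length. The lengths implied by the authors' values were 0.546 times the exon union of the reference for Dicer1 and 1.30 times for Drosha, on a scale where the median gene is at 1. With exon-union lengths Dicer1 remained first at 24.7 and Ago3 second at 9.13, but Drosha moved up to 5.33, ahead of Tdrkh at 3.57 and Mael at 3.36.

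**Figure D1:**
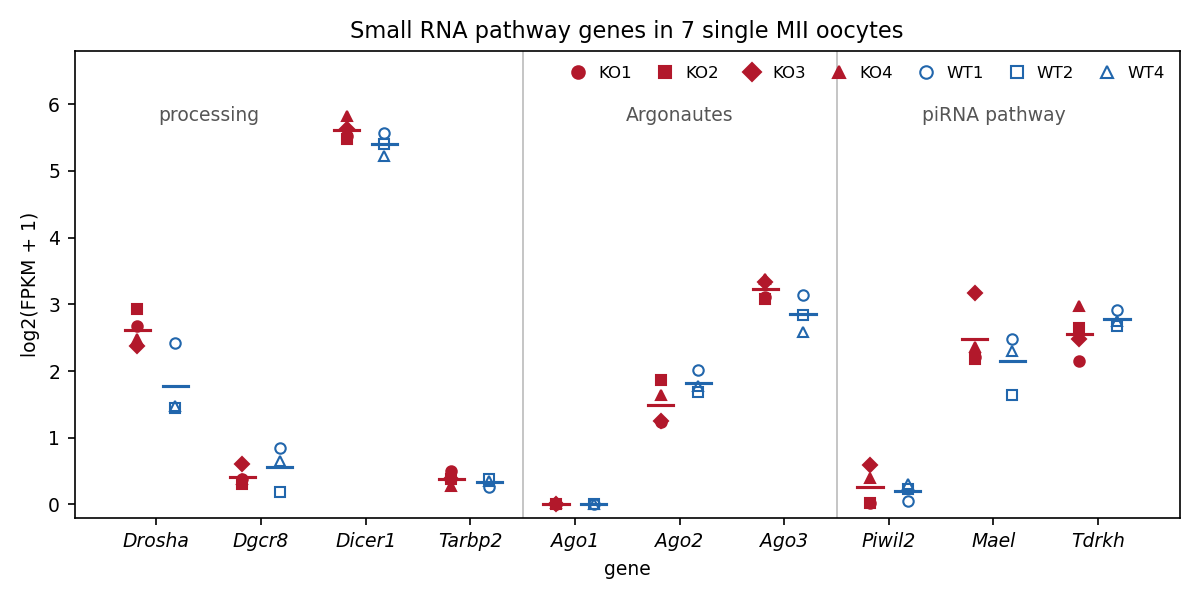
Level of each gene as log2(FPKM + 1) in KO oocytes (filled red) and WT oocytes (open blue). Each symbol is 1 oocyte and bars are means over oocytes. Dicer1 lies above all other genes, Drosha has 1 WT oocyte (WT1) among the KO oocytes, and Ago1 lies at the floor.

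The expression filter (at least 1 FPKM in at least 3 libraries) was passed by 6 of the 10 genes, namely Dicer1, Drosha, Ago2, Ago3, Mael and Tdrkh. Differences between genotypes are those of the mean log2(FPKM + 1), with KO minus WT throughout. The limit of 1.5-fold on this scale is a size and not a test. Of the 6 genes, 1 (Drosha) was over 1.5-fold higher and 0 were over 1.5-fold lower, while among all 8033 genes that passed, 22.6% were higher and 7.92% were lower by more than this. The count of the pathway genes is thus near the background. Their median difference was 0.28, against 0.18 for all genes, and 0.06 against -0.01 after median-ratio scaling. In none of the 6 were the KO and WT ranges apart, whereas 18.9% of all genes were higher and 8.94% lower in KO with ranges apart.

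Drosha, which encodes the nuclease of the microprocessor, had the largest difference of the 10 genes. It was at 5.38, 6.66, 4.18 and 4.59 FPKM in KO1 to KO4, against 4.35, 1.73 and 1.77 FPKM in WT1, WT2 and WT4. All KO oocytes and WT1 were thus high, and WT2 and WT4 were low, so that the genotypes overlapped through WT1 and KO3. The means were 5.20 ± 1.09 FPKM in KO and 2.62 ± 1.505 FPKM in WT oocytes, a ratio of 1.99 and a log2 difference of 0.84. The difference was 1.16 without WT1, 0.65 with median-ratio scaling and 0.58 with quantile normalization, the last just under the 1.5-fold limit of 0.585. The median-ratio factors, which rise with the level of the typical gene in a library, were 1.043 to 1.214 in KO libraries, 1.023 in WT1, 0.851 in WT2 and 0.932 in WT4. WT1 is therefore closer to the KO libraries in that measure too, and the part of this in the Drosha values was not tested.

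The genes whose profile over the 7 oocytes was most like that of Drosha were Dcaf12, Uvrag and Chaf1a. Likeness was the root mean square distance between centred log2(FPKM + 1) values, and these distances were 0.078, 0.089 and 0.096. Dcaf12 was at 75.9, 85.3, 67.7 and 66.8 FPKM in KO1 to KO4 and at 65.8, 34.8 and 35.2 FPKM in WT1, WT2 and WT4, and so also had WT1 near the KO oocytes. Among the pathway genes the nearest to Drosha was Ago3, at a distance of 0.39. The 7 libraries are shared by all these genes, and the profiles are a description.

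Dgcr8, the RNA-binding partner of DROSHA, was low in all oocytes. It was at 0.299, 0.236, 0.519 and 0.300 FPKM in KO1 to KO4, against 0.800, 0.135 and 0.569 FPKM in WT1, WT2 and WT4. WT1 was the highest and WT2 the lowest of the 7, so the WT oocytes enclosed the KO range. The log2 difference was -0.14, and it was 0.00 without WT1. These values rest on 41 to 206 reads per library. In the reference, 14.98% of the 50-base stretches of Dgcr8 transcripts also occur in transcripts of other genes. Its exons overlap those of its hairpin genes, of Gm49776 and, on the other strand, of Trmt2a, and reads from such overlaps cannot be assigned with certainty.

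Dicer1 was at 44.9, 43.4, 48.5 and 55.3 FPKM in KO1 to KO4, against 46.2, 41.3 and 36.3 FPKM in WT1, WT2 and WT4. KO4 was the highest and WT4 the lowest, and the other 5 oocytes lay between 41.3 and 48.5 FPKM. The means were 48.0 ± 5.29 FPKM in KO and 41.3 ± 4.92 FPKM in WT oocytes. The log2 difference was 0.21 as deposited and 0.16 with quantile normalization, but -0.03 with median-ratio scaling. In each oocyte Dicer1 lay between the percentiles 92.4 and 95.1 of the genes detected there. Its within-genotype SD of 0.16 on the log2 scale compares with a median of 0.24 for the 870 genes with a mean of 30 to 100 FPKM.

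Tarbp2, which encodes a double-stranded RNA-binding partner of DICER, was at 0.417, 0.301, 0.307 and 0.218 FPKM in KO1 to KO4, against 0.195, 0.307 and 0.277 FPKM in WT1, WT2 and WT4. The genotypes overlapped over most of their range, with 41 to 99 reads per library. In the reference, 14.31% of the 50-base stretches of Tarbp2 transcripts also occur in transcripts of other genes. The length implied for Tarbp2 was 1.99 times its exon union, on the scale given above. The log2 difference was 0.06 and turned to -0.08 with quantile normalization and to -0.001 with median-ratio scaling. Dicer1 thus exceeded its partner by far in every oocyte, also with exon-union lengths (24.7 against 0.575).

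**Figure D2:**
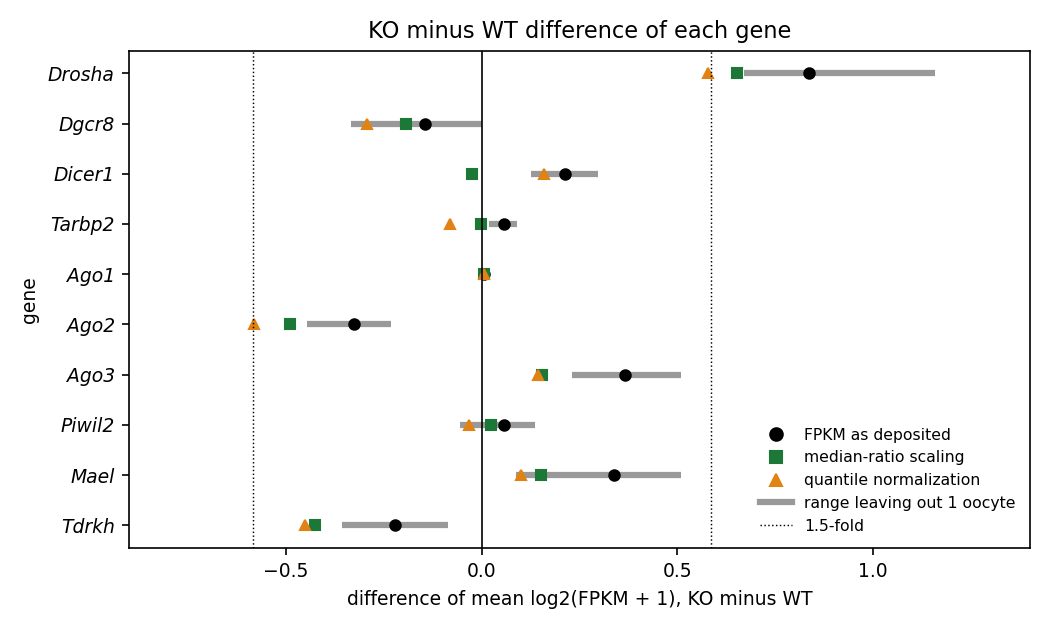
The x axis gives KO minus WT differences in mean log2(FPKM + 1) for each gene on the y axis. Black circles use FPKM as deposited, green squares median-ratio scaling and orange triangles quantile normalization, grey bars span the values that leave out 1 oocyte, and dotted lines mark 1.5-fold. Drosha lies past the line as deposited (0.84) and Ago2 lies closest to the line on the lower side.

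The Argonautes were unequal. Ago3 was the main one at 7.51 FPKM, Ago2 was at 2.17 FPKM, and Ago1 was not detectable above its floor. AGO2 is the Argonaute with strong slicing activity in mammals and the one through which oocyte siRNAs act. Ago2 was at 1.36, 2.63, 1.37 and 2.13 FPKM in KO1 to KO4, against 3.02, 2.22 and 2.42 FPKM in WT1, WT2 and WT4. KO1, KO3 and KO4 were below all WT oocytes, and KO2 lay within the WT range. The means were 1.87 ± 0.623 FPKM in KO and 2.55 ± 0.420 FPKM in WT oocytes, with a log2 difference of -0.33. It was -0.49 with median-ratio scaling and -0.58 with quantile normalization, and stayed negative when any single oocyte was left out (-0.45 to -0.23).

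Ago3 was at 7.60, 7.44, 9.09 and 9.42 FPKM in KO1 to KO4, against 7.85, 6.17 and 5.01 FPKM in WT1, WT2 and WT4. KO3 and KO4 were the highest, WT1 lay above KO1 and KO2, and WT2 and WT4 were the lowest. The means were 8.39 ± 1.01 FPKM in KO and 6.34 ± 1.43 FPKM in WT oocytes. The log2 difference was 0.37, and it was 0.15 with median-ratio scaling and 0.14 with quantile normalization. Only 0.73% of its 50-base stretches and 3.46% of those of Ago2 occur in other genes.

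Ago1 had 0, 0, 1 and 2 reads in KO1 to KO4 and 0 reads in WT1, WT2 and WT4. A count of 0 allows up to 3 reads, which for Ago1 is 0.0270, 0.0229 and 0.0303 FPKM in the WT libraries, and both genotypes lay at or under this floor. Ago1 mRNA was thus not detectable at this depth. Ago4, the remaining Argonaute of the mouse, was at 0 in all KO oocytes and at 0.028, 0.078 and 0 FPKM in WT1, WT2 and WT4, from 7, 23 and 0 reads.

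Of the piRNA genes, Mael and Tdrkh were at several FPKM and Piwil2 was under 1 FPKM in every oocyte. Mael encodes Maelstrom, a protein of germ granules that acts in transposon silencing in the male germ line. It was at 3.65, 3.53, 8.01 and 4.16 FPKM in KO1 to KO4, against 4.60, 2.13 and 3.95 FPKM in WT1, WT2 and WT4. KO3 stood far above the other 6 oocytes and WT2 below them. The log2 difference of 0.34 was 0.11 without KO3 and 0.51 without WT1, and also 0.09 without WT2. The reads of Mael were 79 to 387 per library, and none of its 50-base stretches occurs in another gene.

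The profiles most like that of Mael were those of Hnf4aos, AI413582 and Rabac1, at distances of 0.136, 0.159 and 0.171. In each of them KO3 was the highest oocyte and WT2 the lowest, as in Mael. They were picked for their likeness to Mael over the same libraries, so the shared extremes are a description. Rabac1, for example, was at 25.8 FPKM in KO3 and 9.47 FPKM in WT2.

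Tdrkh encodes a Tudor protein of the mitochondrial surface that holds PIWI proteins while piRNA ends are trimmed. It was at 3.45, 5.27, 4.57 and 6.82 FPKM in KO1 to KO4, against 6.53, 5.41 and 5.76 FPKM in WT1, WT2 and WT4. KO4 was the highest and KO1 to KO3 were below all WT oocytes. The means were 5.03 ± 1.41 FPKM in KO and 5.90 ± 0.572 FPKM in WT oocytes. The log2 difference was -0.22, and -0.43 with median-ratio scaling. On the other strand, exons of Oaz3 overlap 36.7% of the Tdrkh exon length. Oaz3 was at 0, 1.11, 0.424 and 0 FPKM in KO1 to KO4 and at 0.043, 0.037 and 0.680 FPKM in WT1, WT2 and WT4. Without strand information the reads of the overlap cannot be told apart.

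Piwil2, the PIWI protein whose loss blocks male meiosis, was at 0.011, 0.017, 0.501 and 0.315 FPKM in KO1 to KO4, against 0.040, 0.178 and 0.235 FPKM in WT1, WT2 and WT4. KO1, KO2 and WT1 had 1, 2 and 4 reads, and KO3, KO4, WT2 and WT4 had 77, 40, 21 and 21. The 3 oocytes with few reads and the 4 with more thus came from both genotypes. Summed reads were 120 in KO (exact 95% Poisson interval 99.5 to 143) and 46 in WT oocytes (33.7 to 61.4), which cover counting error only.

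Ratios between the genes within an oocyte do not change when a library is scaled by a single factor, as in median-ratio scaling. Quantile normalization can change them, and the ratios here use FPKM as deposited. Of the 15 pairs of the 6 genes above the filter, 5 (33.3%) had ratios that did not overlap between genotypes, where 26.4% of all pairs of genes above the filter and detected in all libraries did so. The share of the 15 pairs is thus near the background. Each of the 5 pairs holds Tdrkh or Ago2, so they are not separate observations. The pairs were described after their values were seen. The Ago3/Ago2 ratio was 5.60, 2.83, 6.63 and 4.42 in KO1 to KO4, against 2.60, 2.79 and 2.07 in WT1, WT2 and WT4. KO2 lay just above WT2 and the other KO oocytes well above. The Drosha/Ago2 ratio was 3.96, 2.53, 3.05 and 2.15 in KO oocytes, against 1.44, 0.780 and 0.730 in WT oocytes, which leaves WT1 below all KO oocytes here. Drosha also stood above Tdrkh in KO1 and KO2 and below it in all WT oocytes, with a Tdrkh/Drosha ratio of 1.00 ± 0.373 in KO and 2.63 ± 0.981 in WT, although KO4 (1.488) and WT1 (1.499) nearly met. Dicer1/Tdrkh (9.99 ± 2.31 in KO and 7.01 ± 0.669 in WT) and Ago3/Tdrkh (1.75 ± 0.412 in KO and 1.07 ± 0.177 in WT) completed the 5. Dicer1 and Ago3 kept close to each other, with a ratio of 5.33 to 5.91 in KO and 5.88 to 7.26 in WT oocytes.

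**Figure D3:**
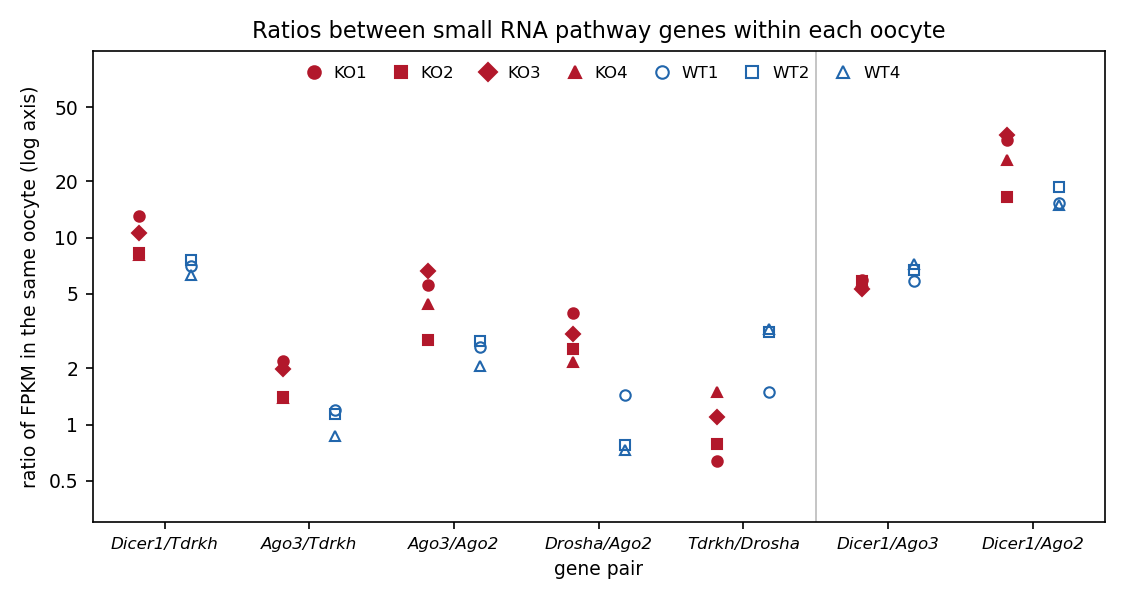
Ratio of FPKM between gene pairs in the same oocyte, on a log axis, for KO oocytes (filled red) and WT oocytes (open blue). Left of the grey line are the 5 pairs, of 15, without overlap between genotypes. Right of it are Dicer1/Ago3 and Dicer1/Ago2, picked from the pairs that overlapped, and the other overlapping pairs are not shown.

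The wider small RNA pathways were described with 6 lists that hold 68 genes, of which 46 were above the filter. Of these 46 genes, 11 (23.9%) were higher by over 1.5-fold in KO oocytes and 1 (2.17%) was lower by that much. Their median difference was 0.19. These shares are to be read against the 22.6% and 7.92% of all genes given above. Counted with ranges apart as well, the shares of all genes were 14.5% higher and 5.22% lower, and the lists had 7 of 46 (15.2%) higher and 0 lower. With median-ratio scaling the counts were 7 higher and 4 lower, and the median turned to -0.02. The median of all genes was then -0.01, and their shares past 1.5-fold were not counted with that scaling.

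The list of Argonautes and effectors of the silencing complex held 11 genes above the filter. Of them 5 (45.5%) were higher by over 1.5-fold, 0 were lower, and the median difference was 0.41. In all 5 the KO oocytes lay above all WT oocytes. Tnrc6a passed the filter through KO oocytes alone, and among WT oocytes Snd1 reached 1 FPKM in WT1 only. The filter thus favoured a call on the higher side for both. Among all genes above the filter, 22.6% were higher by over 1.5-fold, 7.92% were lower, and 14.5% were higher with ranges apart as well. Limd1, a LIM protein that links AGO and TNRC6, was at 7.53 ± 1.44 FPKM in KO and 3.77 ± 0.911 FPKM in WT oocytes. Hsp90ab1, a chaperone that helps to load Argonautes, was at 210 ± 38.7 FPKM in KO and 121 ± 19.7 FPKM in WT oocytes. Hsp90aa1, on the same list and more abundant, overlapped between genotypes (279 ± 19.5 FPKM in KO and 293 ± 24.4 FPKM in WT). Tnrc6a, the scaffold that joins Argonaute to the deadenylases, was at 2.39, 2.23, 1.21 and 1.66 FPKM in KO1 to KO4 and at 0.702, 0.710 and 0.540 FPKM in WT1, WT2 and WT4. Snd1, a nuclease of the silencing complex, was at 1.95 ± 0.270 FPKM in KO and 0.860 ± 0.413 FPKM in WT. Tsnax, whose product forms with translin a nuclease that removes passenger strands, was at 19.0 ± 1.92 FPKM in KO and 12.003 ± 2.60 FPKM in WT. Tsn, which encodes translin, overlapped between genotypes (41.2 ± 3.90 FPKM in KO and 44.6 ± 1.77 FPKM in WT). Under quantile normalization Limd1 (0.60) and Hsp90ab1 (0.88) stayed past the 1.5-fold limit, and Tnrc6a (0.55), Snd1 (0.46) and Tsnax (0.48) did not. With median-ratio scaling Tnrc6a (0.65) and Limd1 (0.64) stayed past it, and Snd1 (0.56), Hsp90ab1 (0.55) and Tsnax (0.41) did not. The count of 5 was thus 2 under either scaling, with Limd1 the only gene in both, and the list's median was 0.22 with median-ratio scaling and 0.16 with quantile normalization. With a pseudocount of 5 the count was 1. The shares of all genes past the limit were not counted under these settings.

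Of 6 genes of microRNA tailing and decay above the filter, Tut7 was the only one (16.7%) over 1.5-fold apart. Among all genes, 22.6% were higher and 7.92% lower by that much. Tut7 encodes a uridylyl transferase that tails pre-microRNAs and maternal mRNAs. It was at 8.97, 14.98, 8.26 and 12.3 FPKM in KO1 to KO4, against 4.17, 2.76 and 5.43 FPKM in WT1, WT2 and WT4. The KO and WT ranges were apart, and the log2 difference of 1.24 was 1.03 with median-ratio scaling and 1.02 with quantile normalization. Exons of other genes on the other strand overlap 8.8% of the exon length of Tut7, and 9.87% of its 50-base stretches occur in other genes. Its paralogue Tut4 was at or under 0.047 FPKM in every oocyte.

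The piRNA list had 17 of 27 genes above the filter, with 2 (11.8%) higher by over 1.5-fold and 1 (5.88%) lower. The shares of all genes were 22.6% and 7.92%. The list's median was -0.01 (-0.21 with median-ratio scaling). Henmt1, the methyltransferase of piRNA ends, was at 3.58 ± 1.12 FPKM in KO and 1.35 ± 0.255 FPKM in WT oocytes, with the ranges apart. Exons of Gm9857 on the other strand overlap 14.7% of its exon length. Prmt5, which methylates PIWI proteins, was higher with overlap (2.54 ± 1.28 against 0.911 ± 0.807 FPKM), and so was named after its values were seen. Among WT oocytes Prmt5 reached 1 FPKM in WT4 only, so the filter favoured this call. Piwil1, the only listed gene above the filter that was lower by over 1.5-fold, was at 1.96, 0.905, 0.422 and 0.707 FPKM in KO1 to KO4, against 4.08, 1.95 and 1.21 FPKM in WT1, WT2 and WT4, where KO1 lay above WT4 and level with WT2. It too was named after its values were seen, as were the abundant piRNA genes that follow. Gtsf1 (52.8 ± 10.8 FPKM in KO and 68.2 ± 4.501 FPKM in WT) and Rnf17 (41.7 ± 1.08 FPKM in KO and 63.2 ± 15.9 FPKM in WT) had all KO oocytes below the WT oocytes, and so had Tdrd12, all within 1.5-fold as deposited. These 3 of 17 genes stand beside 8.94% of all genes lower in KO with ranges apart. Differences also varied with level: the median was 0.04 for the 870 genes with a mean of 30 to 100 FPKM, against 0.18 for all genes. Ddx4 (32.8 ± 9.47 FPKM in KO and 23.1 ± 7.82 FPKM in WT) and Tdrd1 (14.9 ± 5.46 FPKM in KO and 11.7 ± 3.47 FPKM in WT) had the higher mean in KO, with log2 differences of 0.48 and 0.30 and with overlap. With median-ratio scaling 4 genes of the list were past 1.5-fold on the lower side, namely Piwil1 (-0.87), Rnf17 (-0.80), Asz1 (-0.68) and Gtsf1 (-0.63). The share of all genes past this limit was not counted with that scaling, where their median was -0.01. The 4 genes therefore have no matched background.

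Of 7 genes of the microprocessor and of microRNA export above the filter, 2 (28.6%) were over 1.5-fold higher, Drosha and Ddx5, and 0 were lower. The shares of all genes were 22.6% and 7.92%. Ddx5, a helicase that works with DROSHA and a gene named after its values were seen, was at 40.4, 32.5, 30.1 and 37.0 FPKM in KO1 to KO4, against 30.3, 17.9 and 12.05 FPKM in WT1, WT2 and WT4. As in Drosha, WT1 lay just above the lowest KO oocyte, KO3. Of the 2 genes of the Dicer list above the filter, Dicer1 and Adar, 0 were over 1.5-fold apart. Adar, which encodes an enzyme that edits double-stranded RNA, was named after its values were seen. It was at 1.85, 1.84, 1.18 and 0.892 FPKM in KO1 to KO4, against 0.590, 0.662 and 0.627 FPKM in WT1, WT2 and WT4. The ranges were apart, and the log2 difference of 0.56 lay just under the limit of 0.585. Adar passed the filter through KO oocytes alone, which favours such an outcome. The list's count was 1 without KO3, without KO4 and with a pseudocount of 0.1. Exons of Chrnb2 on the other strand overlap 16.8% of the exon length of Adar.

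Genes known to be matched by endogenous siRNAs of mouse oocytes numbered 6, with 4 above the filter. Hdac1 was over 1.5-fold higher in KO oocytes (2.75 ± 0.850 against 1.30 ± 0.501 FPKM), with overlap, and 35.49% of its 50-base stretches occur in other genes. Its log2 difference of 0.70 was 0.53 with median-ratio scaling and 0.43 with quantile normalization, both under the limit, and the list's count was also 0 with a pseudocount of 5 and without WT1. The genes of this list were named after their values were seen. Kif4 was at 56.4 ± 10.4 FPKM in KO and 50.8 ± 6.26 FPKM in WT oocytes. Ran, also in the microprocessor and export list, was at 43.1 ± 13.2 FPKM in KO and 35.2 ± 4.16 FPKM in WT oocytes, with overlap. Rangap1 was below the filter (0.325 ± 0.151 FPKM in KO and 0.216 ± 0.216 FPKM in WT). Ppp4r1 (0.812 ± 0.176 FPKM in KO and 0.878 ± 0.162 FPKM in WT) and Pdzd11 (10.5 ± 2.33 FPKM in KO and 11.2 ± 0.442 FPKM in WT) overlapped between genotypes. On the other strand, exons of Kif4 overlap 39.1% of the Pdzd11 exon length. The list's median difference was 0.19, against 0.18 for all genes, and turned to -0.05 with median-ratio scaling.

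**Figure D4:**
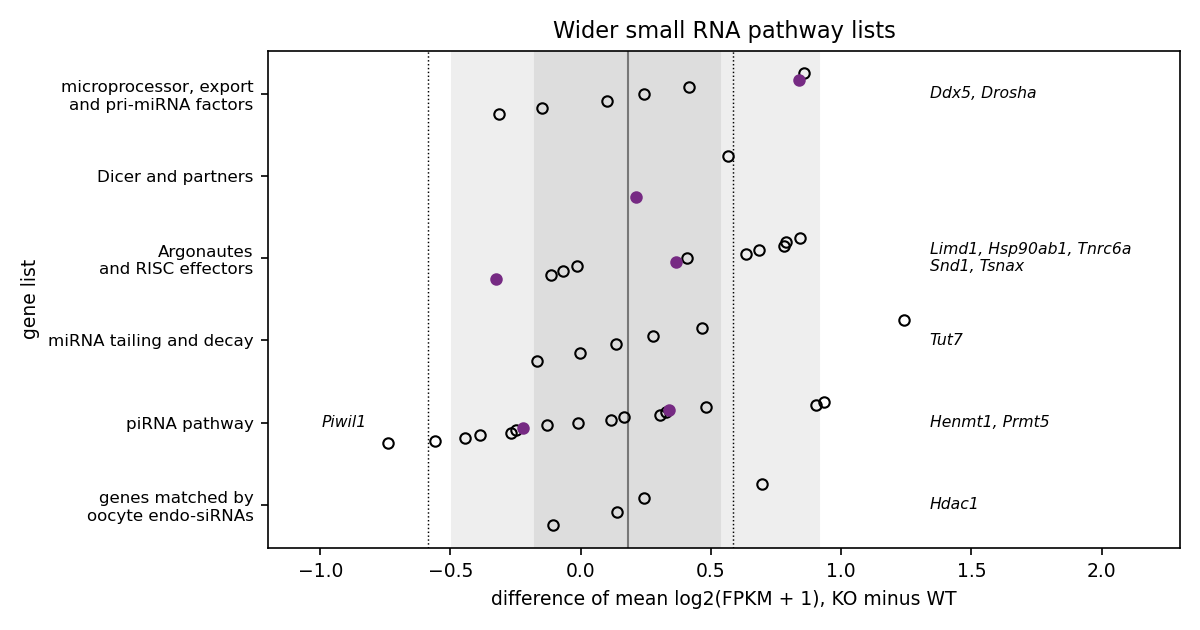
The x axis gives KO minus WT differences in mean log2(FPKM + 1) for the genes of 6 lists above the filter. Of the 10 genes of the report, the 6 that pass it are in purple. Shading spans the percentiles 25 to 75 (dark) and 10 to 90 (light) of all 8033 genes, the grey line is their median (0.18), dotted lines mark 1.5-fold, and genes past them are named in order from the highest.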

How the data were processed

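The authors deposited FPKM per Ensembl gene and oocyte, not logged. Per the submitters' processing notes, the build was mm9 and the tools were HTSeq, edgeR 3.1.10, TopHat (also TopHat2 2.0.2), Bowtie2 and Bowtie 0.12.8, with no roles given. How lengths were set is not given in the sources used here. Per the labels' protocols, cDNA was amplified from single oocytes and pooled libraries were sequenced on shared lanes, and no lane, day or animal is named per library. Spike-in values were not used here.

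Symbols came from GENCODE M21 (GRCm38), used for names and gene structure; 87.4% of identifiers matched. Reads were taken as the smallest whole counts that fit a gene's values within a tolerance of 0.01, and can be too low. Of the 18300 genes with a value, 2437 had one in 1 library, where any value fits by construction. On simulated data 99.0% of 2891 genes were recovered exactly. Intervals cover counting error only.

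Genes with at least 1 FPKM in at least 3 libraries were compared by mean log2(FPKM + 1), which understates changes of low genes. A gene can pass this filter through KO oocytes alone, as Tnrc6a and Adar did. Named genes were the 10 genes, list members past 1.5-fold without overlap, and the 3 nearest profiles of the 2 most variable genes. Ago4, Tut4, Oaz3, Ddx5, Adar, Prmt5, Piwil1, Gtsf1, Rnf17, Tdrd12, Asz1, Ddx4, Tdrd1, Hdac1, Kif4, Ran, Rangap1, Ppp4r1, Pdzd11, Hsp90aa1, Tsn and markers were named after their values were seen. Members and lists were chosen with earlier results of these data known. Python 3.11.15, numpy, pandas and matplotlib were used.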

Additional observations from a re-analysis of the deposited data

Results flagged for a closer look

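The KO oocytes of 18 genes were checked for an outlying oocyte (gap to the nearest oocyte over the range, above Dixon's 95% critical value for 4 values), and chance gives about 1 in 20 such groups. Mael was at 8.01 FPKM in KO3, with a gap of 0.861 of the range. Hira was at 0.0242 FPKM in KO3, from 5 reads, with a gap of 0.926. KO3 was the library with the most reads in genes.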

How the results depend on the processing

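With a pseudocount of 5, 0 of the 10 genes were over 1.5-fold higher, and the lists gave 3 higher and 0 lower. Without a filter the median of the 10 genes was 0.056 and the lists gave 2 lower. Median-ratio scaling gave a median of 0.064 for the genes above the filter, and 7 higher, 4 lower and a median of -0.017 for the lists. Quantile normalization gave 0 higher and a median of 0.12 for the genes above the filter, and 6 higher and 2 lower for the lists. The shares of all genes past 1.5-fold were not counted under these settings, and the cause of the changes was not tested. Leaving out 1 oocyte gave medians of 0.15 to 0.40 for the genes above the filter, always with Drosha alone past 1.5-fold, and 10 to 12 higher genes in the lists. Of 120 recomputed differences of the 10 genes, 6 moved by more than the spread between oocytes: Tarbp2 (0.18) and Ago1 (0.07) with a pseudocount of 0.1, Drosha (0.43) with a pseudocount of 5, Dicer1 (-0.03) with median-ratio scaling, and Tarbp2 (-0.08) and Ago3 (0.14) with quantile normalization. The 120 include the setting without a filter, which cannot change the difference of a single gene. Exon-union lengths were added after the data were seen. No paired analysis was possible because the results come from no test, and nothing in the labels ties oocytes of the same number. Depth limits Ago1, which had at most 2 reads in any library.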
